A study of Mus musculus with 6 samples.

Results

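The semaphorin, plexin, neuropilin, ephrin, Eph, slit, robo, netrin and Unc5 genes, here called guidance genes, were followed across 6 stromal populations of the mouse omentum. Every gene whose symbol matched the names of these families was taken, whatever its level, and 68 of the 23352 gene symbols in the expression tables matched. The 68 genes were 20 semaphorins, 9 plexins, 2 neuropilins, 5 ephrin-A and 3 ephrin-B ligands, 9 EphA and 5 EphB receptors, 3 slits, 4 robo receptors, 4 netrins and 4 Unc5 receptors. All cells came from WT C57BL/6 mice, and no agent was named for them in the labels. The omentum is a fatty fold of the peritoneum that carries small lymphoid clusters, the milky spots. Cells without CD45, the marker of blood leukocytes, were sorted by CD140a (PDGFRα), by CD105 (endoglin) and by the activity of aldehyde dehydrogenase (ALDH), which was read from a fluorescent substrate. The CD140a+ CD105+ cells were divided into P1 (high ALDH activity), P2 (intermediate) and P3 (low), and the CD140a+ CD105- cells into P4 (intermediate) and P5 (low). P6 held cells with low CD140a that were positive in the ALDH assay. There was 1 library for each population, so no test between populations was possible, and each difference below is between 2 libraries or sets of libraries, with no replicate check. The age of the mice and the number pooled in a library are not given in the sources used here.

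These families were first known as cues that steer growing axons and are also used by vessels, epithelia, mesenchyme and lymphocytes. Secreted class 3 semaphorins bind neuropilins, which pair with plexins as the signalling part, whereas membrane-bound semaphorins bind plexins directly. Slits signal through robo receptors and netrins through Dcc, neogenin and Unc5 receptors, and both are large secreted proteins that can stay in the matrix. Ephrins are bound to the membrane and act on Eph receptor tyrosine kinases of neighbouring cells, with signals that can run in both directions.

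Levels are FPKM (read fragments for each kilobase of exon, relative to all mapped reads), a unit that allows genes of different length to be compared. A gene was called different when every library of the higher side had at least 1 FPKM and at least 2 times the FPKM of every library of the lower side. Shares called, for guidance genes and for all genes, are over genes with at least 1 FPKM in some library of the comparison. The estimated depth ran from 36.9 M reads in P6 to 61.5 M in P2 and P5, and 95% intervals given for ratios cover counting error only. *Eng*, which encodes CD105, was between 42.6 and 52.4 FPKM in P1 to P3 and below 1 FPKM in P4, P5 and P6. *Pdgfra*, which encodes CD140a, was between 117 and 154 FPKM in P1 to P5 and at 5.36 FPKM in P6. *Aldh1a2*, which encodes an ALDH enzyme of retinoic acid synthesis, was at 469, 78.8, 134, 284, 145 and 209 FPKM in P1 to P6. Its level was thus highest in P1, but lower in P2 (intermediate ALDH activity) than in P3 (low). The sum of 12 mesothelial markers was 76.2, 97.7 and 155 FPKM in P1 to P3, 1033 and 834 FPKM in P4 and P5, and 3241 FPKM in P6, where *Upk3b* was at 1140 FPKM. *Cdh1* of this list was listed at 0 in P1 and P3 and stayed below 0.1 FPKM in the others. Of 14 endothelial markers, *Esam* (62 FPKM), *Kdr* (46.9 FPKM) and *Egfl7* (1.54 FPKM) were highest in P6 and *Plvap* in P5 (26.8 FPKM), and the other 10, with *Cdh5* and *Pecam1*, stayed below 1 FPKM. Of 12 Schwann cell and neuron markers, *Mbp* (44.7 FPKM) and *Erbb3* (3.2 FPKM) were highest in P6 and *S100b* (10.3 FPKM) and *Tubb3* (5.4 FPKM) in P1, and the other 8 stayed below 1 FPKM, with *Sox10* listed at 0 in every library. A listed 0 need not mean a low level in these tables, since the collagen gene *Col3a1* was listed at 0 in P2 and between 2100 and 3390 FPKM in the other 5 libraries.

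Of the 68 guidance genes, 47 reached 1 FPKM in some library, 32 did so in all 6 libraries, and 28 reached 10 FPKM somewhere. Between 37 genes in P1 and 42 in P6 reached 1 FPKM. The other 21 genes stayed below 1 FPKM everywhere. They were *Efna3*, *Efnb2*, *Epha5*, *Epha6*, *Epha7*, *Epha8*, *Epha10*, *Ntn5*, *Plxnb3*, *Robo2*, *Robo3*, *Robo4*, *Sema3g*, *Sema4d*, *Sema4f*, *Sema4g*, *Sema5b*, *Sema7a*, *Slit1*, *Unc5c* and *Unc5d*. Of these, *Epha6* and *Epha10* were listed at 0 in every library and 9 others in some libraries. P6 held the highest value of 20 of the 47 genes (42.6%, against 37.7% of all genes with at least 1 FPKM in some library). P1 held the highest value of 8 genes (17%, against 14.2% of all genes). It held the lowest value of 17, for which the share of all genes was not counted.

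**Figure D1:**
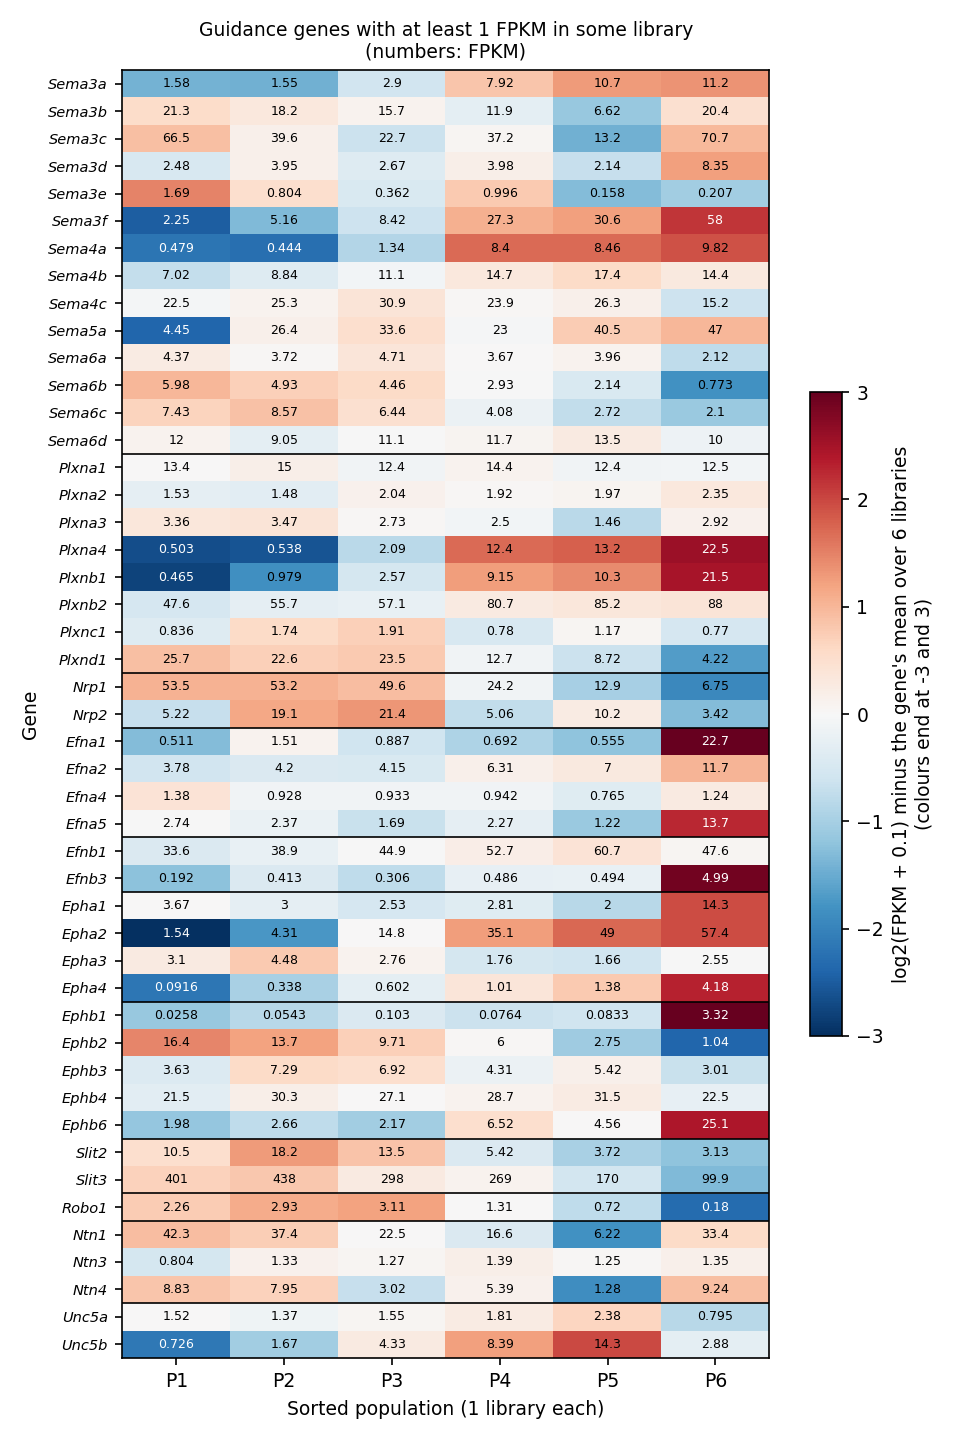
FPKM of the 47 guidance genes with at least 1 FPKM in some library, with genes in rows by family and the 6 populations in columns. Colour is log2(FPKM + 0.1) minus the mean of the gene over the 6 libraries, and the number in each cell is FPKM. *Slit3* is the highest gene in every column, and P6 holds the highest value of 20 genes.

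The most abundant guidance RNA in every population was *Slit3*, a secreted ligand of robo receptors. It was at 401, 438, 298, 269 and 170 FPKM in P1 to P5 and at 99.9 FPKM in P6. The level in P2 was 4.38 times that in P6 (95% interval 4.31 to 4.45), and the order of P1 and P2 was close, with a ratio of P1 to P2 of 0.917 (0.910 to 0.925). By itself *Slit3* made up 45.8% of the summed FPKM of the 68 genes in P1 and P2 and 12.1% in P6. Among all symbols it ranked 176 in P1, 159 in P2 and 609 in P6. The related ligand *Slit2* was at 10.51, 18.2 and 13.5 FPKM in P1 to P3 and at 5.42, 3.72 and 3.13 FPKM in P4 to P6. Their receptors were far lower. *Robo1*, the only robo gene above 1 FPKM, was at 2.26, 2.93 and 3.11 FPKM in P1 to P3, at 1.31 and 0.72 FPKM in P4 and P5, and at 0.18 FPKM in P6. All 3 genes were thus lowest in P6 and higher in each CD105+ library than in P4 and P5. None of the 3 was called in any comparison by the fold of 2. For *Slit3*, P3 (298 FPKM) lay close to P4 (269 FPKM). The share of all genes with this order was not counted. In bulk RNA of sorted cells, fewer cells of a type and less RNA per cell cannot be told apart.

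The comparison of CD105+ cells (P1 to P3) with CD105- cells (P4 and P5) asks which guidance genes go with this gate among CD140a+ cells. Of 45 genes that could be compared, 6 were lower in P1 to P3 (13.3%), whereas 3.66% of all genes were. *Nrp1* alone was higher in P1 to P3 (2.22%, against 1.2% of all genes). The 6 lower genes were the Eph receptor *Epha2*, the plexins *Plxna4* and *Plxnb1*, and the semaphorins *Sema3a*, *Sema3f* and *Sema4a*.

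*Epha2*, a receptor of ephrin-A1, was at 1.54, 4.31 and 14.8 FPKM in P1 to P3, at 35.1 and 49 FPKM in P4 and P5, and at 57.4 FPKM in P6. It was 8.14 times as high in P4 as in P2 (7.62 to 8.71) and 3.31 times as high in P5 as in P3 (3.19 to 3.45). *Plxna4*, which transmits class 3 semaphorin signals with *Nrp1*, was at 0.503, 0.538 and 2.09 FPKM in P1 to P3 and at 12.4, 13.2 and 22.5 FPKM in P4 to P6. At intermediate ALDH activity it was 23.1 times as high in P4 as in P2 (20.9 to 25.5), and at low ALDH activity 6.31 times as high in P5 as in P3 (5.98 to 6.65). *Plxnb1*, a receptor of class 4 semaphorins, was at 0.465, 0.979 and 2.57 FPKM in P1 to P3, at 9.15 and 10.3 FPKM in P4 and P5, and at 21.5 FPKM in P6. Both plexins were thus near or below 1 FPKM in P1 and P2 and above 9 FPKM in P4 and P5.

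Among the ligands, *Sema3a*, whose receptors are *Nrp1* with class A plexins, was at 1.58, 1.55 and 2.9 FPKM in P1 to P3 and at 7.92, 10.7 and 11.2 FPKM in P4 to P6. *Sema3f*, which prefers *Nrp2*, was at 2.25, 5.16 and 8.42 FPKM in P1 to P3 and at 27.3, 30.6 and 58 FPKM in P4 to P6. The membrane-bound *Sema4a*, which can bind class B plexins and plexin D1, was at 0.479, 0.444 and 1.34 FPKM in P1 to P3 and at 8.4, 8.46 and 9.82 FPKM in P4 to P6. That P4 and P5 lay above P1 to P3 for these 6 genes follows from the call. P6, which the call did not use, was the highest library for each. The share of P6-highest genes among all genes with this call was not counted. For *Sema3a* the step from P5 to P6 was within counting error, with a ratio of 1.05 (0.985 to 1.12). The mesothelial marker sum was likewise higher in P4 to P6 than in P1 to P3, as was the sum of 15 pancreatic acinar markers in P4 against P2 (1465 and 271 FPKM) and in P5 against P3 (171 and 29 FPKM). The part of either list in these differences was not tested.

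*Nrp1*, the co-receptor of *Sema3a* and of VEGF, was at 53.5, 53.2 and 49.6 FPKM in P1 to P3, at 24.2 and 12.9 FPKM in P4 and P5, and at 6.75 FPKM in P6. Its ratio of P2 to P4 was 2.2 (2.13 to 2.28) and of P3 to P5 3.83 (3.67 to 4). The class A plexins, which take up its signals, differed among themselves, since *Plxna4* ran the other way while *Plxna1* lay between 12.4 and 15 FPKM in every library. The number of genes called higher in P1 to P3 depended on P4. Without that library 10 genes were called higher in P1 to P3, and the genes gained were *Ephb2*, *Ntn1*, *Ntn4*, *Plxnd1*, *Robo1*, *Sema3b*, *Sema6b*, *Sema6c* and *Slit2*. Without P1, or without P3, 3 genes were called. After division by *Gapdh*, which was higher in P4 and P5 than in P1 to P3, 8 genes were higher and 5 lower, in place of 1 and 6. The lower gene lost was *Epha2*. With the median of ratios 2 were higher and 6 lower. With a fold of 3, 4 of the 6 lower genes were left, and *Epha2* and *Sema3a* were lost. Shares of all genes were not counted under these other settings, so a shift common to all genes cannot be told apart here.

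A comparison within matched ALDH gates, P2 with P4 and P3 with P5, was added after the values had been seen, with a difference of at least 1.5 times in both on the log2(FPKM + 0.1) scale. Here 14 of 43 guidance genes were higher in CD105+ cells in both (32.6%, against 7.69% of all genes) and 10 were lower in both (23.3%, against 10.1%). The higher genes were *Efna1*, *Epha3*, *Ephb2*, *Nrp1*, *Nrp2*, *Ntn1*, *Plxnc1*, *Plxnd1*, *Robo1*, *Sema3b*, *Sema6b*, *Sema6c*, *Slit2* and *Slit3*. The lower genes were the 6 above with *Epha4*, *Ephb6*, *Sema4b* and *Unc5b*. With other scalings, *Sema4b* was lost in all 3, *Ephb6* after division by *Gapdh*, and *Efna1* and *Slit3* with quantile normalization. Among the higher genes *Ntn4* was gained in all 3, and *Ephb3* and *Plxna3* after division by *Gapdh*. The SD across genes of the mean CD105 difference was 1.34 for the guidance genes and 0.838 for all genes on this log2 scale, and the medians were 0.15 and -0.08.

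**Figure D2:**
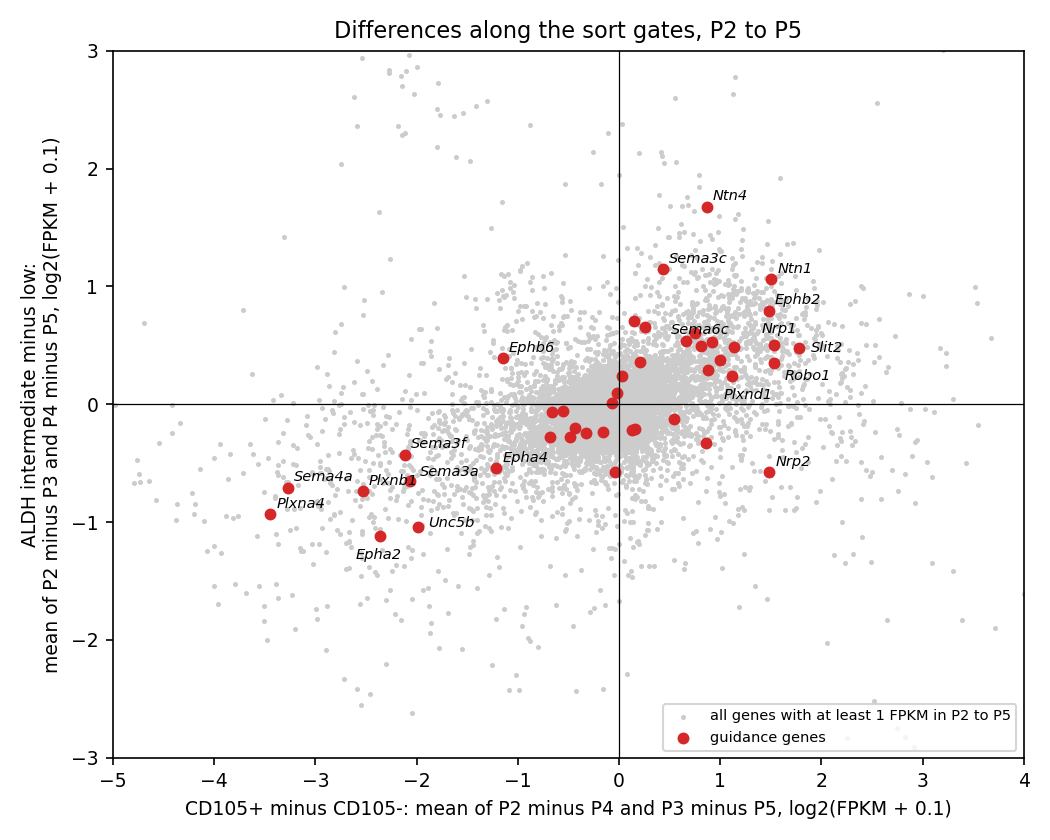
Each point is a gene with at least 1 FPKM in P2 to P5, with guidance genes in red. The horizontal axis is the mean CD105+ minus CD105- difference and the vertical axis the mean intermediate minus low ALDH difference, both in log2(FPKM + 0.1), and 108 genes lie outside the plotted range. *Plxna4* and *Sema4a* lie farthest to the left of the red points, *Slit2* farthest to the right and *Ntn4* highest.

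In the CD105+ direction, the receptor *Plxnd1*, which binds *Sema3e*, was at 25.7, 22.6 and 23.5 FPKM in P1 to P3, at 12.7 and 8.72 FPKM in P4 and P5, and at 4.22 FPKM in P6. *Ephb2*, a receptor of B ephrins, was at 16.4, 13.7 and 9.71 FPKM in P1 to P3, at 6 and 2.75 FPKM in P4 and P5, and at 1.04 FPKM in P6. *Sema6b*, a transmembrane semaphorin, was at 5.98, 4.93 and 4.46 FPKM in P1 to P3, at 2.93 and 2.14 FPKM in P4 and P5, and at 0.773 FPKM in P6. None of these 3 genes was called higher in P1 to P3 than in P4 and P5, since P4 lay within 2 times of the lowest CD105+ library. The ratio of P2 to P4 was 1.77 (1.71 to 1.84) for *Plxnd1*, 2.28 (2.13 to 2.44) for *Ephb2* and 1.68 (1.51 to 1.88) for *Sema6b*. *Sema6c* (2.1 to 8.57 FPKM), *Sema3b* (6.62 to 21.3 FPKM) and *Epha3* (1.66 to 4.48 FPKM) were also higher in CD105+ cells in both matched comparisons. *Sema3b* was at 20.4 FPKM in P6, close to the 21.3 FPKM of P1.

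**Figure D3:**
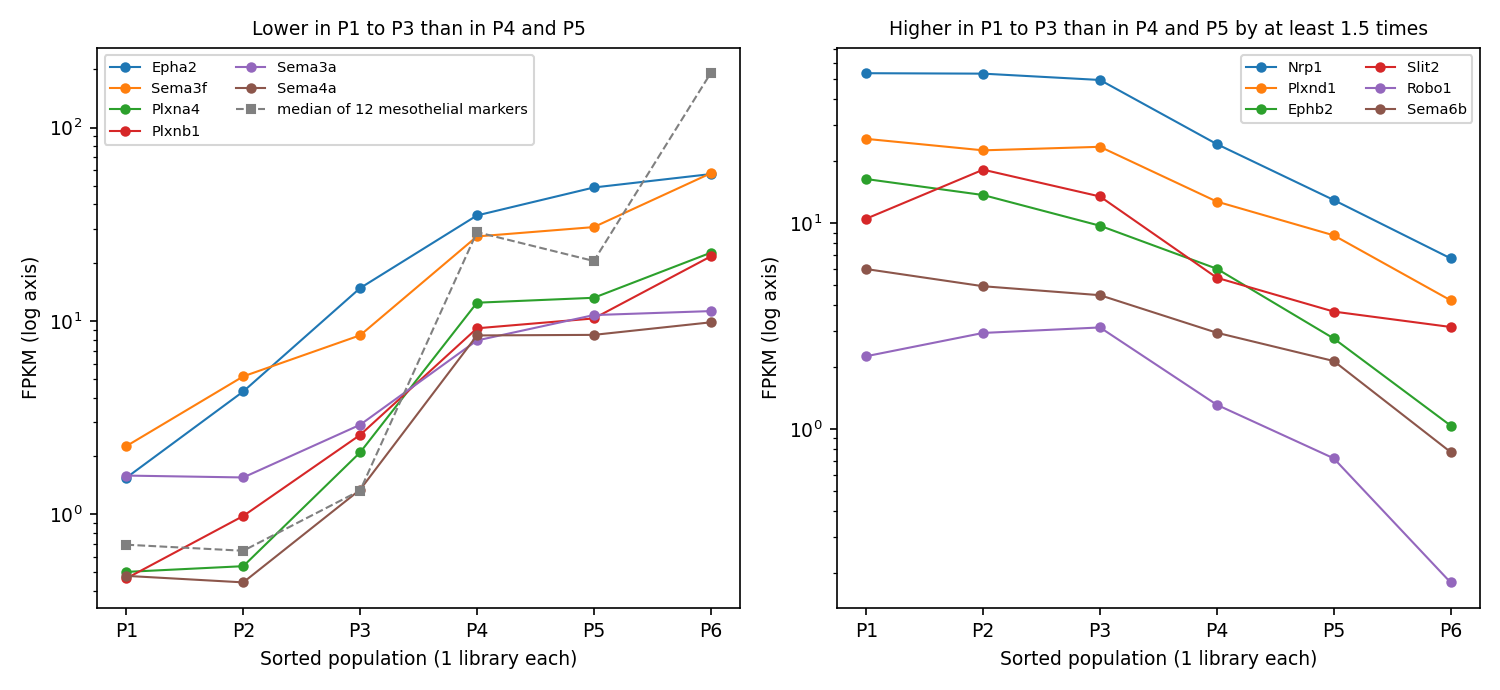
FPKM on a log axis in the 6 populations, 1 library each. Left, the 6 genes lower in P1 to P3 than in P4 and P5, with the median of 12 mesothelial markers as a dashed line. P6 is the highest library of each line on this side. Right, 6 genes that were at least 1.5 times higher in P1 to P3 than in P4 and P5, with *Nrp1* at the top.

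*Sema3b* and *Sema3f*, both class 3 semaphorins, ran in opposite directions over P1 to P5. *Sema3b* (chr9:107597674-107609229, minus strand) and *Sema3f* (chr9:107681500-107710475, minus strand) lie close together on chromosome 9 in GRCm38 (mm10). From P1 to P5, *Sema3b* went from 21.3 to 6.62 FPKM and *Sema3f* from 2.25 to 30.6 FPKM. In P6 both were high, with *Sema3b* at 20.4 FPKM and *Sema3f* at 58 FPKM.

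To show the DNA at the starts of genes with opposite levels, the 250 bases before a RefSeq start are printed for 2 genes higher in P4 to P6, *Epha2* and *Sema4a*, and for 2 genes higher in P1 to P3, *Plxnd1* and *Ephb2*. They are chr4:141300971-141301220 on the plus strand, chr3:88461183-88461432 on the minus strand, chr6:115995006-115995255 on the minus strand and chr4:136836013-136836262 on the minus strand, from the RefSeq promoter table for GRCm38.p6. The table holds 4 starts for *Sema4a*, of which the outermost is shown, and 1 start for each of the others. Each is written 5′ to 3′ on the strand of the gene. Capitals mark the letters AGGTCA, bound by many nuclear receptors including those of retinoic acid, GGGCGG, the GC box, and CAGCTG, an E-box, on either strand, and no marked matches overlap.
*Epha2*: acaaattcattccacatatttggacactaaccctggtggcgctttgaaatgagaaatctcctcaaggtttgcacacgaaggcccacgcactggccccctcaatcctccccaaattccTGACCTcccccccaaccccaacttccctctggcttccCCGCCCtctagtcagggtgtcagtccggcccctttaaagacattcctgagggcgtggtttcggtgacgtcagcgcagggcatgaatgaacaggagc
*Sema4a*: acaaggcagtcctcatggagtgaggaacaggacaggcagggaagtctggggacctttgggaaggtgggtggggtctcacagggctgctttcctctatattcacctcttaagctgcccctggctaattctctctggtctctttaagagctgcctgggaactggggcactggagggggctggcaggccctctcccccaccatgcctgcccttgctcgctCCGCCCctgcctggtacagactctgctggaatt
*Plxnd1*: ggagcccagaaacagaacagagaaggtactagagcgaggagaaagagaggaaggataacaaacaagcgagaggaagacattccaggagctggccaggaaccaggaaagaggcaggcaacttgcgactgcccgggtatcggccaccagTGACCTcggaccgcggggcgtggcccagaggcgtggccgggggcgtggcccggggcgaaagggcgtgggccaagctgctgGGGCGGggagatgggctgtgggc
*Ephb2*: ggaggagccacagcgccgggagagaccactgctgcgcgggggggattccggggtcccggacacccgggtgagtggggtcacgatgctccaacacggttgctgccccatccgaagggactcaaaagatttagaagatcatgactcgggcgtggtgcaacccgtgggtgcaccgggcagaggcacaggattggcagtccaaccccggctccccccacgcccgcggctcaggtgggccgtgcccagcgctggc
The AGGTCA letters, here as TGACCT, stood once each before *Epha2* and *Plxnd1*, whose levels ran in opposite directions, and the GC box once each before *Epha2*, *Plxnd1* and the printed start of *Sema4a*. The 300-base windows at the other 3 starts of *Sema4a* held 2, 1 and 0 GC boxes. The *Ephb2* stretch held none of the 3 motifs. In the 300 bases from 250 before to 50 after the start, AGGTCA was found at 1 or more starts of 11 of the 59 guidance genes in the table (18.6%, against 18.1% of all 27025 genes there). The GC box was found for 44 of them (74.6%, against 38.2%) and CAGCTG for 12 (20.3%, against 18.3%). Counted over starts, of which 12 guidance genes had more than 1, the shares were 14.7% of 75 guidance starts and 16.3% of all 32851 for AGGTCA, 70.7% and 35.7% for the GC box, and 16% and 16.3% for CAGCTG. Among genes with at least 1 FPKM in some library the shares were 80% of 40 guidance genes and 69.2% of 9392 genes for the GC box, 20% and 14.6% for AGGTCA, and 5% and 18% for CAGCTG. The median share of G and C over starts was 64.3% for guidance genes and 52.7% for all genes.

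The comparison of P6 with each other population asks what marks the CD140a low cells. Of 47 guidance genes, 9 were selective for P6, that is, called higher there than in each of P1 to P5 (19.1%), against 6.45% of all genes. Of these 9, 7 were ephrins or Eph receptors, and *Plxnb1* and *Sema3d* made up the rest. With a minimum of 5 FPKM 6 genes were selective, and *Efnb3*, *Epha4* and *Ephb1* were lost. The 47 genes held 4 ephrin-A, 2 ephrin-B, 4 EphA and 5 EphB genes.

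Among the ligands, *Efna1* (ephrin-A1), which binds *Epha2* and other EphA receptors, was at 0.511, 1.51, 0.887, 0.692 and 0.555 FPKM in P1 to P5 and at 22.7 FPKM in P6. Its level in P6 was 15 times that in P2, the next library (12.3 to 18.4). *Efna5*, a second GPI-anchored ligand, was at 2.74, 2.37, 1.69, 2.27 and 1.22 FPKM in P1 to P5 and at 13.7 FPKM in P6. The transmembrane ligand *Efnb3* was at 0.192, 0.413, 0.306, 0.486 and 0.494 FPKM in P1 to P5 and at 4.99 FPKM in P6, 10.1 times the level in P5 (8.06 to 12.7). For all 3 ligands the first 5 libraries stayed below 3 FPKM. Summed FPKM of the ephrin-A genes was 49.5 in P6 and between 7.72 and 10.3 in P1 to P5. The most abundant ephrin, *Efnb1*, did not follow this and lay between 33.6 FPKM in P1 and 60.7 FPKM in P5, with 47.6 FPKM in P6.

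Of the receptors, *Epha1* was at 3.67, 3, 2.53, 2.81 and 2 FPKM in P1 to P5 and at 14.3 FPKM in P6. *Epha4*, which binds ephrins of both classes, was at 0.0916, 0.338, 0.602, 1.01 and 1.38 FPKM in P1 to P5 and at 4.18 FPKM in P6. *Ephb1* was at 0.0258, 0.0543, 0.103, 0.0764 and 0.0833 FPKM in P1 to P5 and at 3.32 FPKM in P6, with a ratio of P6 to P3 of 32.1 (21.0 to 54.3). *Ephb1* was thus the gene most restricted to P6 by ratio among the 9, at a low level. *Ephb6*, whose kinase domain is inactive, was at 1.98, 2.66, 2.17, 6.52 and 4.56 FPKM in P1 to P5 and at 25.1 FPKM in P6, 3.85 times the level in P4 (3.61 to 4.1). Together the EphA genes summed to 8.49, 12.4, 20.9, 40.7, 54 and 78.6 FPKM in P1 to P6, while the EphB sum lay between 43.5 and 54.9 FPKM. Of the EphA sum in P6, 57.4 FPKM was *Epha2*, which was not selective for P6. Within the EphB genes, *Ephb2* was lowest and *Ephb6* highest in P6.

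The secreted semaphorin *Sema3d* was at 2.48, 3.95, 2.67, 3.98 and 2.14 FPKM in P1 to P5 and at 8.35 FPKM in P6. Its ratio of P6 to P4 was 2.1 (1.9 to 2.32), and the call was lost when libraries were scaled by *Gapdh*, by quantile normalization or by the median of ratios. *Plxnb1* was 2.09 times as high in P6 as in P5 (2.02 to 2.17) and stayed called with each of these scalings. Both *Plxnb1* and *Sema3d* lost the call with a pseudocount of 1 and with a fold of 3. Only *Ephb2*, *Plxnd1* and *Sema6b* were lower in P6 than in each other population (6.38% of 47, against 3.43% of all genes), and after division by *Gapdh* the *Plxnd1* call was lost and *Unc5a* gained. *Ephb2* was 15.8 times as high in P1 as in P6 (13.3 to 19.0) and 2.65 times as high in P5 (2.19 to 3.23). *Nrp1* was just outside the call, with a ratio of P5 to P6 of 1.92 (1.78 to 2.08). With quantile normalization 8 genes were selective for P6 and 5 were lower there. Without P5, 6 genes were called lower in P6, with *Nrp1*, *Robo1* and *Slit3* gained. In P6, 10 of 12 mesothelial, 4 of 10 adipocyte, 3 of 14 endothelial, 3 of 10 mural, 2 of 12 Schwann cell and neuron, 2 of 9 measured myeloid and 0 of 15 pancreatic acinar markers were selective by the same rule, and 5 of 10 fibroblast markers were lower than in each other population. The summed FPKM of the acinar list was also highest in P6 (2116 FPKM). The part of other cells in these differences was not tested.

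**Figure D4:**
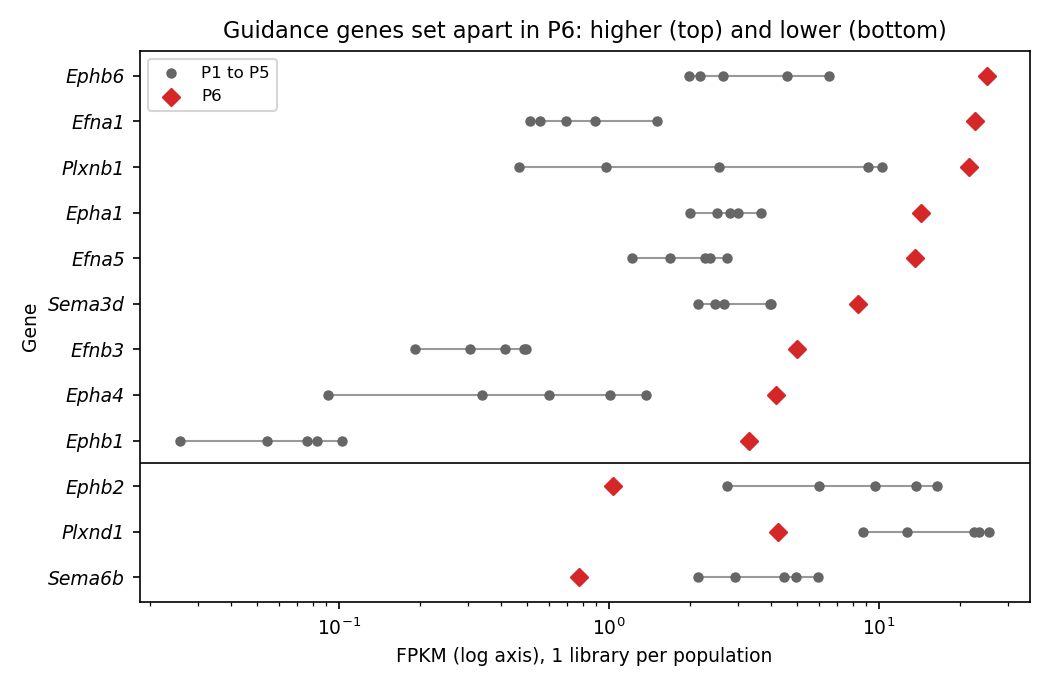
FPKM on a log axis of the 9 guidance genes selective for P6 (upper block) and the 3 genes lower in P6 than in each other population (lower block). Grey points are the libraries of P1 to P5, red diamonds P6. *Ephb1*, *Efna1* and *Efnb3* show the widest gap, and *Sema3d* and *Plxnb1* lie near the fold of 2.

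P1 and P2 share the CD105+ gate and differ in ALDH activity, which is high in P1. No guidance gene was selective for P1 (0 of 47, against 0.418% of all genes). Against P2 alone, 8 of 41 genes were lower in P1 (19.5%, against 4.5% of all genes), and *Sema3e* alone was higher (2.44%, against 1.05%). The 8 genes were *Efna1*, *Epha2*, *Ephb3*, *Nrp2*, *Plxnc1*, *Sema3f*, *Sema5a* and *Unc5b*. With quantile normalization 4 were left, and *Ephb3*, *Plxnc1*, *Sema3f* and *Unc5b* were lost.

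*Sema5a*, a transmembrane semaphorin with thrombospondin repeats, was at 4.45 FPKM in P1 and at 26.4, 33.6, 23, 40.5 and 47 FPKM in P2 to P6. Its ratio of P2 to P1 was 5.95 (5.7 to 6.2), so that P1 lay apart from the other 5 libraries. *Nrp2*, a co-receptor of *Sema3f* and of VEGF-C, was at 5.22 FPKM in P1, at 19.1 and 21.4 FPKM in P2 and P3, at 5.06 and 10.2 FPKM in P4 and P5, and at 3.42 FPKM in P6. Both neuropilins were thus high in P2 and P3, but in P1 *Nrp1* was high and *Nrp2* low. *Ephb3*, a receptor of B ephrins, was at 3.63 FPKM in P1, 7.29 and 6.92 FPKM in P2 and P3, 4.31 and 5.42 FPKM in P4 and P5, and 3.01 FPKM in P6. At 2.01 (1.85 to 2.19), its ratio of P2 to P1 was just past the fold. *Plxnc1*, the receptor of *Sema7a*, ranged from 0.77 to 1.91 FPKM. *Sema3e*, the ligand of *Plxnd1*, was highest in P1, where its level was 2.1 times that in P2 (1.84 to 2.42), and ranged from 0.158 to 1.69 FPKM. The mural marker sum was 77.6 FPKM in P1 and 191 FPKM in P2, with 5 of 10 markers called lower in P1. All 15 pancreatic acinar markers were also lower in P1 than in P2. The part of either list in these differences was not tested.

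For intermediate against low ALDH activity, P2 was set against P3 and P4 against P5. In CD105+ cells, *Ntn4* was higher in P2 than in P3 (2.38% of 42 genes, against 1.16% of all genes). *Epha2*, *Plxna4*, *Plxnb1*, *Sema4a* and *Unc5b* were lower in P2 (11.9%, against 2.75%). The mesothelial marker sum was also lower in P2 than in P3 (97.7 and 155 FPKM), with 4 of 12 markers called, and its part here was not tested. In CD105- cells, *Ephb2*, *Ntn1*, *Ntn4* and *Sema3c* were higher in P4 than in P5 (9.52%, against 4.17%), and after division by *Gapdh* 7 genes were. *Nrp2* was lower in P4 (2.38%, against 1.57%), with a ratio of P5 to P4 of 2.01 (1.88 to 2.16), and this call was lost with each of the 3 other scalings (median of ratios, quantile normalization and *Gapdh*). By the added count of differences of at least 1.5 times in both, *Ntn1*, *Ntn4* and *Sema3c* were higher at intermediate ALDH activity (6.98% of 43 genes, against 1.63% of all genes). *Unc5b* was lower in both (2.33%, against 2.19%).

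*Ntn1*, the secreted netrin that attracts or repels through Dcc and Unc5 receptors, was at 42.3, 37.4 and 22.5 FPKM in P1 to P3, at 16.6 and 6.22 FPKM in P4 and P5, and at 33.4 FPKM in P6. *Ntn4*, a netrin of basement membranes that binds laminin, was at 8.83, 7.95 and 3.02 FPKM in P1 to P3, at 5.39 and 1.28 FPKM in P4 and P5, and at 9.24 FPKM in P6. Both netrins were lowest in P5, and *Ntn4* was 4.2 times as high in P4 as in P5 (3.68 to 4.83). *Sema3c*, a secreted semaphorin that binds both neuropilins, was at 66.5, 39.6 and 22.7 FPKM in P1 to P3, at 37.2 and 13.2 FPKM in P4 and P5, and at 70.7 FPKM in P6. It was the most abundant semaphorin in P1, P2, P4 and P6. P6 was the highest library of *Ntn4* and *Sema3c* as deposited, but P1 was with the median of ratios and division by *Gapdh* and, for *Ntn4*, with quantile normalization. *Unc5b*, a netrin receptor, ran against its ligands, with 0.726, 1.67 and 4.33 FPKM in P1 to P3, 8.39 and 14.3 FPKM in P4 and P5, and 2.88 FPKM in P6. It was 4.97 times as high in P5 as in P6 (4.45 to 5.55), unlike the 6 genes lower in P1 to P3 than in P4 and P5, which were highest in P6.

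The 15 pancreatic acinar markers moved with these contrasts, since each was higher in P2 than in P3 and in P4 than in P5, with sums of 5.08, 271, 29, 1465, 171 and 2116 FPKM in P1 to P6. None was at 0 in any library. Their part in the netrin and *Sema3c* differences was not tested.

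**Figure D5:**
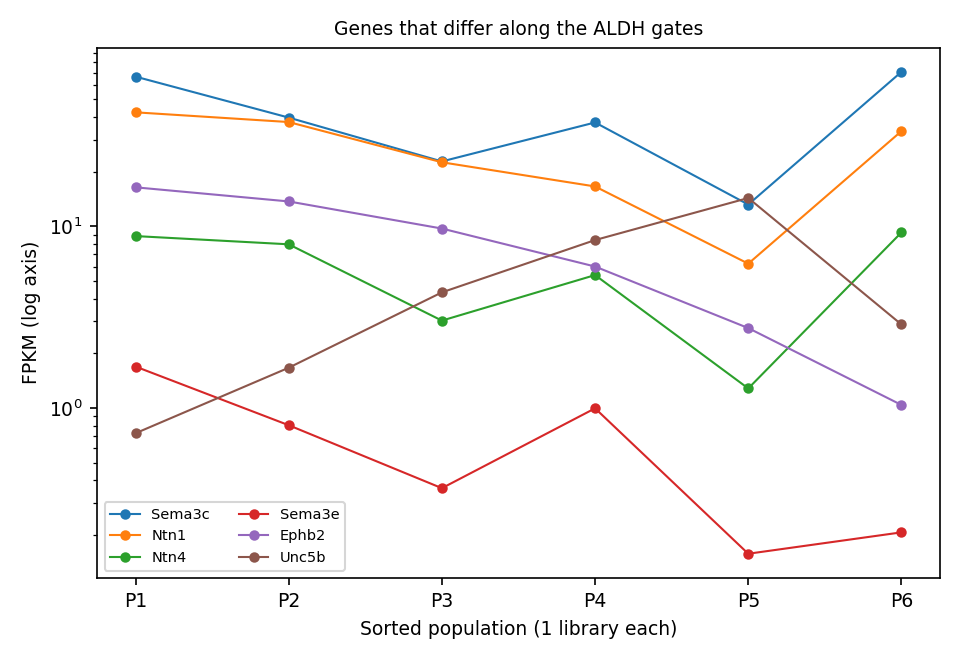
FPKM on a log axis of 6 guidance genes in the 6 populations, 1 library each. *Sema3c*, *Ntn1*, *Ntn4* and *Ephb2* lie higher in P2 than in P3 and in P4 than in P5, as does *Sema3e*, and *Unc5b* lies lower. The order of P6 and P1 for *Sema3c* and *Ntn4* turns with the median of ratios and division by *Gapdh*, and for *Ntn4* also with quantile normalization.

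Called in no comparison by the fold of 2 were 20 of the 47 genes. The share of all genes without a call was not counted. Among the 20 were *Slit3*, the most abundant guidance gene, and the most abundant plexin and ephrin. *Plxnb2*, a receptor of class 4 semaphorins, lay between 47.6 FPKM in P1 and 88 FPKM in P6, and its ligand *Sema4c* between 15.2 FPKM in P6 and 30.9 FPKM in P3. *Ephb4*, known as the receptor of ephrin-B2 in veins, lay between 21.5 and 31.5 FPKM, whereas its ligand *Efnb2* stayed below 1 FPKM. *Sema6d*, which binds *Plxna1*, lay between 9.05 and 13.5 FPKM, and *Sema6a* between 2.12 and 4.71 FPKM. *Sema4b* ranged from 7.02 to 17.4 FPKM and *Efna2* from 3.78 to 11.7 FPKM. The low genes *Efna4*, *Ntn3*, *Plxna2*, *Plxna3* and *Unc5a* stayed below 3.5 FPKM. Summed over families, plexin RNA was 93.3 FPKM in P1 and 155 FPKM in P6, neuropilin RNA 58.7 and 10.2 FPKM, netrin RNA 52 and 44 FPKM with 8.76 FPKM in P5, and slit RNA 412 and 103 FPKM.

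Of 26 other guidance ligands and receptors, 19 reached 1 FPKM. Called lower in P1 to P3 than in P4 and P5 were 5 of the 26 (against 3.66% of all genes), 3 were selective for P6 (against 6.45%) and 0 were higher in P1 to P3 (against 1.2%). Counts for this and the following lists are out of all listed genes. The shares of all genes leave out those below 1 FPKM in the libraries compared. *Neo1* (neogenin), a receptor of netrins and of RGM proteins, was at 13, 15.8 and 17.3 FPKM in P1 to P3, at 52.9 and 51.4 FPKM in P4 and P5, and at 97.4 FPKM in P6. *Rgma*, its GPI-anchored ligand, lay between 8.21 and 13.4 FPKM in P1 to P5 and at 36.4 FPKM in P6. *Ntng2*, a GPI-anchored relative of the netrins, lay between 18.9 and 22 FPKM in P1 to P3 and between 51 and 55.9 FPKM in P4 to P6. The netrin receptor *Dcc* was below 0.1 FPKM in every library, and *Neo1* was higher than each Unc5 gene in every library.

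*Met*, a receptor tyrosine kinase that can associate with class B plexins, was at 2.07, 1.87 and 5.58 FPKM in P1 to P3 and at 13.9, 21 and 22.1 FPKM in P4 to P6. *Kdr*, the VEGF receptor that works with neuropilins, was at 46.9 FPKM in P6 and at most 3.3 FPKM elsewhere, while both neuropilins were lowest in P6. Of the signalling genes downstream, 3 of 22 for semaphorins and plexins were lower in P1 to P3 than in P4 and P5 (3.66% of all genes) and 1 was lower in P6 (3.43% of all genes). *Mical2*, an enzyme that oxidizes actin, was at 2.97, 4.55 and 7.08 FPKM in P1 to P3 and at 21.1, 28 and 18.3 FPKM in P4 to P6. For slits and netrins, 3 of 17 were lower in P6 (3.43% of all genes), among them the kinase *Fyn*, with 11.3 FPKM in P6 and between 37.4 and 74 FPKM elsewhere. For ephrins and Eph receptors, 2 of 15 were lower in P6 (3.43% of all genes) and 1 was higher in P1 to P3 (1.2%). Of the 22, 17 and 15 listed genes, 20, 17 and 9 reached 1 FPKM in some library.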

How the data were processed

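The authors deposited FPKM values for each of the 6 libraries. Cells were sorted on a FACS Aria III, RNA was purified with an RNeasy Micro Kit, and NEBNext Ultra libraries were read as single-end reads of 76 bp on an Illumina NextSeq. The submitters' processing notes name TopHat2 2.0.7, Cufflinks 2.1.1 and mm10. The annotation and filters are not given in the sources used here, and nothing states that strand was used, so overlapping genes on opposite strands cannot be told apart.

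FPKM values were used as deposited, and rows that shared a symbol (495 per table) were summed, which touched no guidance gene. With 1 library per population, no p-value, SE or SD over samples could be had. Depth was estimated from the steps of low FPKM values, using GENCODE M21 genes with a single transcript of at least 800 nt and a fragment length of 200 nt. The share of values up to 10 reads that fell within 0.05 of a whole number was 50.0% to 56.7% in the 6 libraries, so read numbers are estimates and count models were not used. Estimated depths were 53.2, 61.5, 60.5, 58.5, 61.5 and 36.9 M reads in P1 to P6. Intervals are exact conditional 95% intervals from the estimated reads over the shortest coding transcript, and cover counting error only, since reads without molecular identifiers are not independent molecules.

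A call needed at least 1 FPKM on the higher side and a fold of 2. Every guidance gene with at least 1 FPKM was named, and all 6 values were given for those called in a comparison with at least 3 FPKM. Genes of the pathway lists were given values when called in P6 or by CD105 with at least 20 FPKM, except *Dcc*, chosen after its value was seen. Guidance genes, marker lists and pathway lists were chosen with earlier results of these data known. A pseudocount of 0.1 was added for log2 differences. Other lists gave summed FPKM of 12.8 to 49.3 (Schwann cell and neuron), 173 to 379 (adipocyte), 24.6 to 72.0 (myeloid), 1.48 to 7.55 (lymphoid), 6.05 to 119 (endothelial), 77.6 to 352 (mural) and 9010 to 14260 (fibroblast) across the libraries. Promoters came from RefSeq (GRCm38.p6), which held 59 of the 68 genes, and positions from GENCODE M21 (GRCm38). The rule for calls, and no other step, was tested on simulated data, with changes well past the fold and counting noise only. The tools were matplotlib 3.10.9, scipy 1.17.1, pandas 2.3.3 and numpy 2.4.6 under Python 3.11.15. Alternatives for the minimum FPKM, the fold, the pseudocount, the scaling, repeated symbols and the libraries compared were tried.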

Additional observations from a re-analysis of the deposited data

How the results depend on the processing

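No paired analysis was possible because a population was read from 1 library only. Of 140 counts of guidance genes under other settings, 95 stayed within 1.5 times of the reported count and 45 did not, and for the latter the cause was not tested beyond the setting itself. Shares of all genes under the other settings were not counted. With a fold of 1.5, the counts were 7 lower in P6, 8 higher and 10 lower in P1 to P3 than in P4 and P5, 1 selective for P1 (*Sema3e*), 2 higher in P1 than in P2, 5 higher in P2 than in P3, and 12 higher and 3 lower in P4 than in P5. With a fold of 3 they were 0 lower in P6, 0 higher in P1 to P3, 0 higher and 2 lower in P1 than in P2, 0 higher and 3 lower in P2 than in P3, and 1 higher and 0 lower in P4 than in P5. With a minimum of 5 FPKM they were 1 lower in P6, 0 higher and 4 lower in P1 than in P2, and 1 lower in P2 than in P3, and with a minimum of 0.5 FPKM 2 higher in P2 than in P3 and 2 lower in P4 than in P5. A pseudocount of 1 gave 0 lower in P6, 0 higher and 3 lower in P1 than in P2, 2 lower in P2 than in P3 and 0 lower in P4 than in P5. The median of ratios gave 2 higher in P1 to P3, 0 lower in P4 than in P5 and 5 higher at intermediate ALDH activity in both matched comparisons. Division by *Gapdh* gave 8 higher in P1 to P3, 1 selective for P1, 7 higher and 0 lower in P4 than in P5, and 5 in both matched ALDH comparisons. Quantile normalization gave 5 lower in P6, 3 higher in P1 to P3, 1 selective for P1, 4 lower in P1 than in P2 and 0 lower in P4 than in P5. Leaving out each library in turn gave 3 to 6 lower in P6, 1 to 10 higher in P1 to P3 and 0 to 1 selective for P1, the last without P4.

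Relative to FPKM, the median over all genes shifted by 0.13 in P1 and -0.11 in P6 (log2) for the median of ratios and by 0.27 in P1 and -0.33 in P5 for division by *Gapdh*. The order of the highest libraries turned for 6 of 135 values. The log2 ratio of P1 to P2 for *Nrp1* was -0.01 with quantile normalization. That of P6 to P1 for *Ntn4* was -0.17 by the median of ratios, -0.19 by quantile normalization and -0.27 after division by *Gapdh*, and for *Sema3c* -0.15 by the median of ratios and -0.25 after division by *Gapdh*.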
